A study of Mus musculus with 2 samples.

Results

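The cells described here were the MHC class II high antigen-presenting cells of a mouse bone marrow culture, 628 in the DMSO library and 591 in the dabrafenib (DAB) library, or 1219 of 21035 cells in all. A cell was included when its UMIs of H2-Aa, H2-Ab1 and H2-Eb1 together made at least 30 of every 10000 UMIs, a UMI being 1 counted RNA molecule. It also had to have no UMI of the B cell genes Cd79a, Cd79b and Ms4a1, under 2 UMIs of Ccr7 or of Fscn1 (activated dendritic cells have both), and under 10 UMIs of C1qa, C1qb and C1qc per 10000 (macrophages have more). Cells had at least 1000 UMIs, of which at most 10% were mitochondrial. Because measured MHC class II RNA chose the cells, their MHC class II level is a description and not a finding.

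Both libraries came from C57BL/6 bone marrow, female, 10 weeks old, and were cultured over 4 days in the cytokines IL-6 (50 ng/mL) and GM-CSF (50 ng/mL). This culture yields myeloid-derived suppressor cells (MDSC), immature monocytes and granulocytes that restrain T cells. One library was grown with 1.5 µM DAB, a BRAF inhibitor that the study examined as an activator of the amino acid sensor GCN2, and the other with the solvent DMSO. Each condition was 1 library and the sources used here do not give the number of mice in it, so no test between conditions was possible and every interval (exact, 95%) covers counting error only. The DMSO library held 106792967 UMIs over 9855 barcodes, 9621 of which passed as cells, and the DAB library 165506902 UMIs over 11631 barcodes, 11414 of which passed.

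MHC class II molecules present peptides from endosomes to CD4+ T cells. H2-Aa pairs with H2-Ab1, and H2-Eb1 encodes a second beta chain, while Cd74 (the invariant chain) escorts the pair and H2-DM loads the peptide. Ciita is the coactivator that switches the set on. In cultures with GM-CSF, monocytes can take on this program, and the resulting cells share genes with conventional dendritic cells.

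The promoters of these genes carry a shared element that Ciita is recruited to, an X box and a Y box at a fixed distance. The 3 windows below are shown because H2-Aa and H2-Eb1 chose the cells and H2-DMb1 was not used by the rule. They are the 200 bases before the RefSeq transcription start (GRCm38.p6), 5′ to 3′ on the gene's strand, with capitals for the letters GNAACT of the X box core and for ATTGG, the Y box core, or its reverse CCAAT.
H2-Aa, chr17:34287824-34288023, minus strand: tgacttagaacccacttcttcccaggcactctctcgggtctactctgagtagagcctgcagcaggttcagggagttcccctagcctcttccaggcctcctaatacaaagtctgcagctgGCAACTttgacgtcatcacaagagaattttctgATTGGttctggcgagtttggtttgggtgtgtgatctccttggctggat
H2-Eb1, chr17:34305667-34305866, plus strand: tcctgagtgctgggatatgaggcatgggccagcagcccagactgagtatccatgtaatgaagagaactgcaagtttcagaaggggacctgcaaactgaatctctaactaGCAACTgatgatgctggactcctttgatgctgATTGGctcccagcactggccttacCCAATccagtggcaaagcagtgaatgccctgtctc
H2-DMb1, chr17:34152991-34153190, plus strand: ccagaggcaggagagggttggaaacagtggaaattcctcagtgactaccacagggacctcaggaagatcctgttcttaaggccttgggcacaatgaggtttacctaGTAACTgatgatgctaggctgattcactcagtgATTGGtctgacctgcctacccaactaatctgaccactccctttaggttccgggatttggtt
The first letter of ATTGG lay 33 bases after that of GNAACT in H2-Aa, 32 in H2-Eb1 and 33 in H2-DMb1. A search for this pair on the same strand, 20 to 40 bases apart and on either strand of the gene, was set after these windows had been read. It found 307 of the 32851 promoter windows of 300 bases in the table (0.935%), and among the 13 matched genes of the 17 on the MHC class II list it found H2-Aa, H2-Eb1, H2-Eb2 and H2-DMb1. A match describes letters only.

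The MHC class II high cells made up 6.53% of DMSO cells (exact binomial interval 6.04 to 7.04%) and 5.18% of DAB cells (4.78 to 5.60%). Of the 813 DMSO and 862 DAB cells over the MHC class II limit, 89 and 185 were left out for a B cell UMI, 64 and 84 for Ccr7 with Fscn1, and 32 and 2 for C1q. The level of H2-Aa, H2-Ab1 and H2-Eb1 together had a median of 73.7 per 10000 UMIs in DMSO and 73.8 in DAB, with a highest value of 351 and 319. In all other cells the median was 0 in DMSO and 0.582 in DAB. No gap marked the limit: 60 DMSO and 43 DAB cells that met the other criteria lay between 25 and 30 per 10000, and 49 and 41 lay between 30 and 35. Plet1 was at 91.7 CPM (counts of the gene scaled to a total of 1000000 UMIs) in the DMSO cells just outside and 169 CPM just inside, and at 16.6 and 34.5 CPM in DAB.

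**Figure D1:**
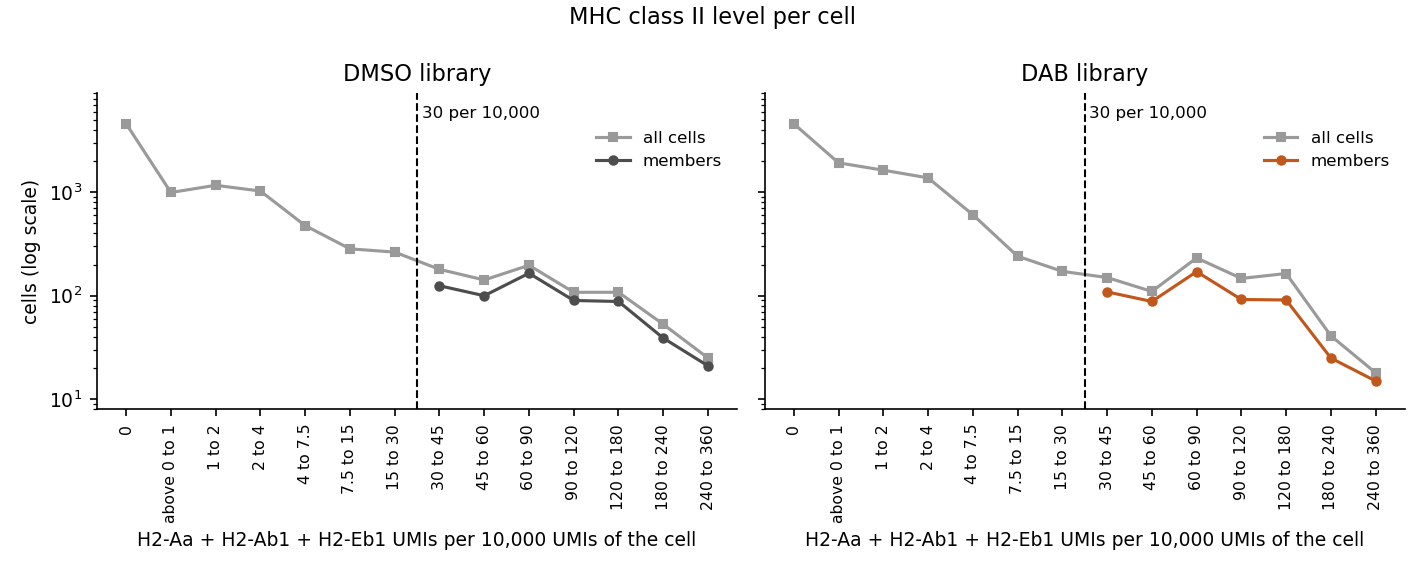
Number of cells (log axis) in bins of the summed H2-Aa, H2-Ab1 and H2-Eb1 level, as UMIs per 10000 UMIs of the cell, in the DMSO library (left) and the DAB library (right). Squares are all cells with at least 1000 UMIs, circles the MHC class II high cells, and the dashed line the limit of 30. Bins widen to the right, so heights of bins of different width are not comparable; 4594 DMSO and 4595 DAB cells had no such UMI, and 165 and 171 MHC class II high cells lay between 60 and 90.

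The cells were large in RNA content. The MHC class II high cells had a median of 18746 UMIs in DMSO and 28734 in DAB, against 7805 and 9885 in all other cells. After thinning to 3000 UMIs per cell they showed 1253 and 1277 genes, and the other cells 1248 and 1270. A score against simulated doublets marked 56 DMSO cells (8.92%) and 70 DAB cells (11.8%), which were kept because the rule keeps them. The number marked in each library was set in advance from its cell count, at 7.70% of all DMSO cells and 9.13% of all DAB cells. Both libraries contained 152 barcodes of the same sequence, carried by 9 DMSO and 7 DAB MHC class II high cells, and no barcode was MHC class II high in both. The part of depth, doublets and shared barcodes in the results below was not tested.

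The label's markers beyond MHC class II were only partly met. Plet1, a surface protein of marrow-derived dendritic cells, was at 225 CPM in DMSO (15.6% of cells had at least 5 per 10000 UMIs) and 180 CPM in DAB (12.0%). Ccl17, a chemokine that draws T cells, was at 1110 CPM in DMSO and 129 CPM in DAB, and 327 of 628 DMSO cells and 463 of 591 DAB cells had no Ccl17 UMI at full depth. The monocyte receptor gene Csf1r was detected, after thinning to 3000 UMIs, in 34.3% of MHC class II high cells with DMSO and 37.5% with DAB, with 3.4% and 4.1% in B cells and 12.9% and 19.7% in granulocytes of the same libraries. Its level was 151 CPM in DMSO and 170 CPM in DAB, against 152 and 125 CPM in the sum of all other cells. Ly6c2, the usual monocyte surface marker, had a UMI in 5.5% and 7.1%, below the 8.0% and 9.3% of B cells, and so was at background. The dendritic genes Cd209a (0.2% and 0.5%) and Flt3 (0.8% and 1.2%) were near 0 as well. Of the 15 genes compared on the monocyte-derived and type 2 dendritic cell list, 11 were at least 2-fold over all other cells in both libraries and none under, while of 8 monocyte genes none was over and 4 were under. The cells are therefore described by their MHC class II RNA rather than as monocytes.

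Several genes outside the rule were higher than in the sum of all other cells, in both libraries. The comparison was the CPM of their summed UMIs over the CPM of all other cells, and 187 of 4710 genes compared (3.97%) were at least 2-fold higher in both libraries while 84 (1.78%) were at least 2-fold lower. After H2-Eb1, H2-Aa and H2-Ab1, which chose the cells, the leading genes with at least 50 CPM in both libraries were Ciita, H2-DMb2, Plet1, Aif1, Hfe, Kmo and Cd86. Ciita was at 75.3 CPM in DMSO and 89.95 CPM in DAB, against 4.93 and 4.60 CPM in other cells. Aif1, an actin-binding protein of macrophages, was at 71.2 and 105 CPM against 6.82 and 4.14 CPM. Hfe, the iron regulator related to MHC class I, was at 85.7 and 78.1 CPM against 8.95 and 9.70 CPM. Kmo, a tryptophan-degrading enzyme, was at 118 and 112 CPM against 16.2 and 9.36 CPM. Each of these genes differed less between the libraries than between the MHC class II high cells and the rest.

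B cells were not among the groups whose gene levels are compared in this paragraph. Of those groups, the Ccr7 and Fscn1 cells, which the rule leaves out, were the nearest in H2-Aa level. They numbered 69 in DMSO and 100 in DAB at any MHC class II level and with or without a B cell UMI. Their H2-Aa level was 5070 and 4744 CPM, against 3655 and 3290 CPM in the MHC class II high cells. Some of the leading genes were as high or higher there, with Ciita at 88.9 and 113 CPM, Aif1 at 106 and 177 CPM and Cd86 at 372 and 391 CPM. Kmo was lower, at 34.5 and 35.9 CPM in the Ccr7 and Fscn1 cells, and Csf1r was at 16.2 and 34.4 CPM there against 151 and 170 CPM. Dendritic genes went both ways. Zbtb46 (52.9 and 53.4 CPM, against 14.2 and 28.8 CPM) and Flt3 (20.6 and 91.3 CPM, against 2.42 and 4.10 CPM) were higher in the Ccr7 and Fscn1 cells. Plet1 (72.7 and 86.8 CPM, against 225 and 180 CPM) and Clec10a (37.5 and 42.4 CPM, against 195 and 98.3 CPM) were lower. The C1q cells, counted the same way, numbered 103 in DMSO and 15 in DAB. They had Plet1 at 422 and 70.7 CPM, Aif1 at 154 and 37.7 CPM, H2-Aa at 1263 and 1004 CPM and Mmp12 at 2755 and 1075 CPM, while the MHC class II high cells had Mmp12 at 1141 and 159 CPM.

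The MHC class II high cells of the 2 libraries were then compared gene by gene. Of 5842 genes at 20 CPM or more in at least 1 library, 286 were at least 2-fold higher in the DAB cells (4.90%) and 366 at least 2-fold lower (6.26%), 652 or 11.2% together, and the median log2 ratio of all genes compared was 0.04. The ratio's exact Poisson interval lay wholly beyond 2-fold for 180 of the higher and 257 of the lower genes. In all other cells of the same libraries, 2.26% of genes were at least 2-fold higher and 2.51% lower, 4.77% together. Of the 286 higher genes, 116 (40.6%) were 2-fold higher in the other cells too, and of the 366 lower genes, 99 (27.0%) were 2-fold lower there. Only 11 of the higher genes were below 0 in the other cells, and 39 of the lower genes were above 0.

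**Figure D2:**
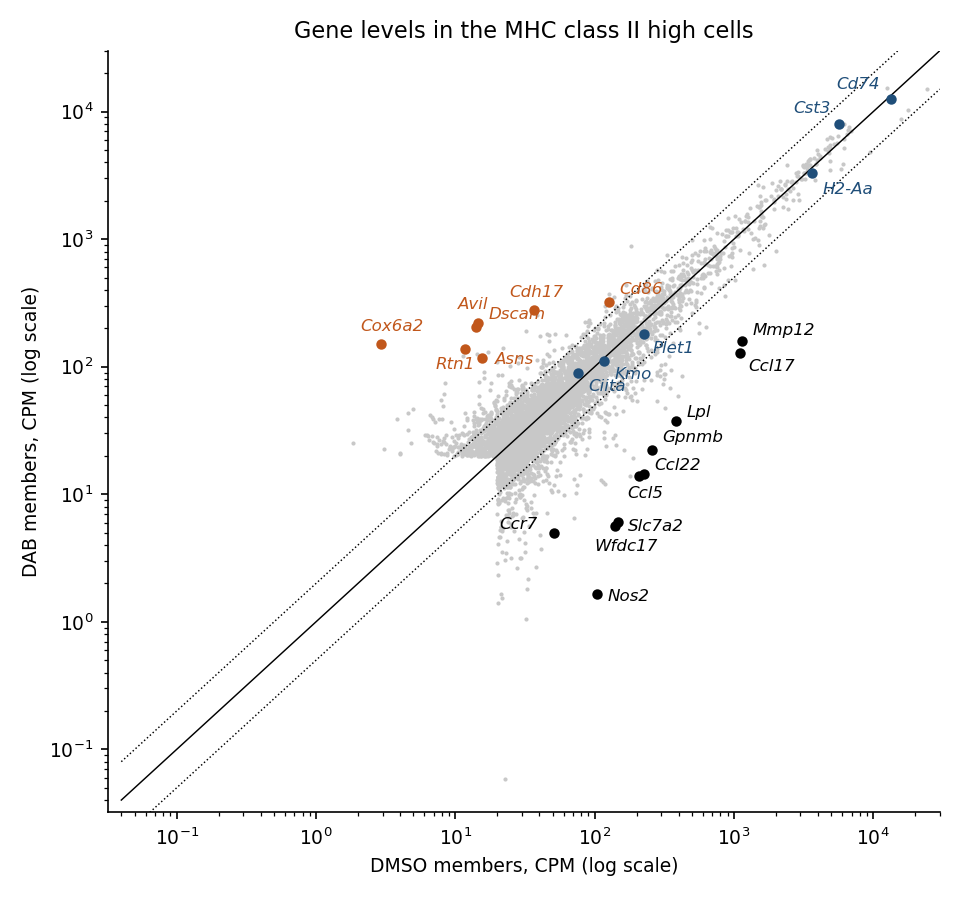
CPM of each of the 5842 genes compared in MHC class II high cells of the DMSO library (x axis) and the DAB library (y axis), both on log axes, with the line of equal level and dotted lines at 2-fold. H2-Aa, Cd74, Plet1, Kmo and Ciita lay near the line, Cox6a2, Avil, Dscam, Rtn1 and Asns far above it, and Nos2, Slc7a2, Wfdc17, Ccl22 and Ccl5 far below it.

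Of the MHC class II list, 14 genes were compared, 3 of which chose the cells, and nothing is read from their likeness between the libraries. Of the other 11, none was 2-fold higher or lower, with a median log2 ratio of -0.16 (-0.29 in all other cells), in cells selected at the same MHC class II limit in both libraries. Cd74 was at 13344 CPM in DMSO and 12524 CPM in DAB. H2-Aa was at 3655 and 3290 CPM, H2-Ab1 at 3156 and 3306 CPM and H2-Eb1 at 2370 and 2246 CPM, values that the common limit on their sum constrains. H2-DMa, an alpha chain of the peptide loader, was at 618 and 701 CPM. Its partners differed in direction: H2-DMb1 was at 279 CPM in DMSO and 222 CPM in DAB (log2 ratio -0.33, interval -0.40 to -0.26), and H2-DMb2 was at 352 and 563 CPM (0.68, 0.62 to 0.73). H2-DMb1 and H2-DMb2 are near-identical copies, so the split of their reads is uncertain. Ctss and Lgmn, lysosomal proteases that trim peptides, were lower but short of 2-fold. Ctss was at 683 and 457 CPM (log2 ratio -0.58) and Lgmn at 86.8 and 49.7 CPM (-0.81). In all other cells their ratios were -0.92 and -0.31. None of the 15 MHC class I genes passed 2-fold either, with a median of 0.23: H2-D1 was at 856 and 860 CPM and the immunoproteasome subunit Psmb8 at 458 and 632 CPM, while B2m, the shared light chain, was at 904 and 479 CPM (-0.92).

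Costimulatory genes split. Cd86, the ligand that gives T cells their second signal, was at 127 CPM in DMSO and 320 CPM in DAB (log2 ratio 1.33, interval 1.25 to 1.41), and cells with a UMI after thinning to 3000 UMIs went from 27.0% (162 of 600 cells) to 54.6% (317 of 581). B cells of the same libraries had 9.20% and 10.47%. Cd48 was also at least 2-fold higher, at 45.003 and 104 CPM. In the other direction, the maturation marker Cd83 was at 25.6 and 6.74 CPM (-1.93) and Cd274, which encodes the inhibitory ligand PD-L1, at 193 and 89.95 CPM (-1.10). Cd80, the partner of Cd86, was at 26.3 and 23.9 CPM. In the sum of all other cells, Cd86 had a log2 ratio of 1.07, Cd48 of 0.91, Cd83 of 0.58 and Cd274 of -1.07. In all, 2 of the 9 genes of this list were 2-fold higher and 2 lower (median -0.14, and 0.33 in all other cells). Both lower ones depended on the setting: Cd83 was at -0.75 when every cell was given equal weight, and Cd274 at -0.93 with an MHC class II limit of 60 and -0.95 without cells carrying Ccr7 UMIs.

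Chemokine ligand genes were mostly lower in DAB. Of the 11 chemokine ligands compared, 7 were at least 2-fold lower in DAB and 2 higher (median -1.32; 0.26 in all other cells). Ccl17 was lower by a log2 ratio of -3.11 (interval -3.18 to -3.04), and cells with a Ccl17 UMI at 3000 UMIs went from 36.3% to 13.1%, with 1.1% and 0% in B cells. In the sum of all other cells Ccl17 had a ratio of -2.61 and Ccl22 of -1.33. The neighbouring cells differed from that sum: Ccl17 was at 1092 and 679.7 CPM in the Ccr7 and Fscn1 cells and at 1190 and 1717 CPM in the C1q cells, 15 of which were from DAB. Ccl22 was at 2322 and 1049 CPM in the former and at 12.2 and 51.9 CPM (17 and 11 UMIs) in the latter. With every cell given equal weight, the ratios of Ccl17, Ccl22 and Ccl5 were -2.76, -2.90 and -2.89. Ccl22, which shares the receptor of Ccl17, was at 225 CPM in DMSO and 14.3 CPM in DAB (-3.98), and Ccl5 at 209 and 14.0 CPM (-3.90). Ccl6 (2003 and 805 CPM) and Ccl9 (424 and 84.3 CPM) were lower in these cells, whereas all other cells had more Ccl6 with DAB (5964 and 8808 CPM). Over the settings run, the ratio of Ccl6 in the MHC class II high cells lay between -2.42 and -1.22. The neutrophil attractants Cxcl2 (19.2 and 49.2 CPM) and Cxcl3 (46.8 and 178 CPM) were the 2 higher ligands, and other cells held 157 and 627 CPM of Cxcl2 and 289 and 2019 CPM of Cxcl3. With scored doublets removed, the log2 ratio of Cxcl3 was -0.018 in place of 1.92. Ccl24, an eosinophil attractant, was at 678 and 785 CPM, against 138 and 53.8 CPM in other cells.

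Some activated dendritic cell genes were unevenly spread among the cells. In DMSO, 68 of the MHC class II high cells (10.8%, interval 8.51 to 13.5%) had at least 1 Ccr7 UMI per 10000, against 10 in DAB (1.69%, 0.814 to 3.09%). This set was chosen after the values had been seen. The 10 DAB cells had a median of 6295 UMIs, against 28982 in the other DAB MHC class II high cells. The 68 DMSO cells had 17157.5 against 19002, and in a cell under 10000 UMIs a single Ccr7 UMI was enough. The rule's own limit of 2 UMIs each of Ccr7 and Fscn1 was not scaled to depth, which differed between the libraries. The 68 DMSO cells carried 72.8% of the Ccl5 UMIs, 52.5% of the Ccl22 UMIs and 30.3% of the Il4i1 UMIs of the DMSO MHC class II high cells, and 8.197% of the Ccl17 UMIs. The 10 DAB cells carried 14.6% of the Ccl5, 32.8% of the Ccl22 and 9.40% of the Il4i1 UMIs of theirs. In DMSO the set had Irf8 at 395 CPM, against 56.0 CPM in the remaining MHC class II high cells, and Csf1r at 28.0 against 164 CPM. In cells with no Ccr7 UMI, the log2 ratio of Ccl5 was -2.61, of Ccl22 -3.65 and of Ccl17 -3.20. Leaving aside Ccr7, which the rule used and which was at 50.8 and 4.92 CPM, 4 of the 9 genes compared on the activated dendritic cell list were 2-fold lower and none higher (median -0.97; 0.00 in all other cells), among them Il4i1 at 281 and 90.4 CPM and Birc2 at 39.1 and 17.0 CPM. Without Ccr7 UMIs, Il4i1 had a ratio of -1.31 and Cd83 of -1.55.

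The genes of the immature monocyte state of this culture were the group with the lowest median. Of 9 genes compared, 7 were at least 2-fold lower in DAB and none higher (median -2.36; -1.07 in all other cells). The matrix protease Mmp12 was at 1141 CPM in DMSO and 159 CPM in DAB, Spp1 (osteopontin) at 1011 and 474 CPM, and Lpl (lipoprotein lipase) at 387 and 37.2 CPM. Chil3, a chitinase-like secreted protein, was at 299.99 and 104 CPM. The lectin Mgl2, also on this list, was at 1481 and 981 CPM. Cells with at least 10 Mmp12 UMIs per 10000 made up 33.0% of the DMSO cells (207) and 3.72% of the DAB cells (22), a limit set after the values had been seen. In DMSO these 207 cells held 87% of the Mmp12 UMIs and 69% of the Nos2 UMIs, and their median MHC class II level was 58.6 per 10000 against 82.1 in the rest.

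Of the 13 genes compared on the list of enzymes and secreted factors tied to suppression, 7 were at least 2-fold lower, 6 did not pass 2-fold and 2 of these were above 0 (median -1.21; -0.73 in all other cells). Nos2, the inducible nitric oxide synthase, had the lowest ratio of all genes with at least 50 CPM in 1 library, at 104 CPM in DMSO and 1.64 CPM in DAB (-5.98, interval -6.58 to -5.44). Cells with a Nos2 UMI at 3000 UMIs went from 12.7% to 0.3%, beside 6.9% and 2.5% in the granulocytes. The arginine carrier Slc7a2 (147 and 6.04 CPM), the secreted factor Wfdc17 (140 and 5.68 CPM), the coagulation gene F7 (71.6 and 6.50 CPM) and the glycoprotein Gpnmb (257 and 22.2 CPM) were also among the 10 lowest. So was Prtn3, a granule protease of young granulocytes (180 and 14.0 CPM). Hmox1 was at 170 and 73.5 CPM and Vegfa at 182 and 58.8 CPM.

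Macrophage, lipid and lysosome lists each had members that were 2-fold lower. Of 7 macrophage genes compared that the rule did not use, 5 were at least 2-fold lower and 1 higher (median -1.72; 0.17 in all other cells), the lower ones including the lipid receptor Trem2 (187 and 19.4 CPM) and the lysosomal glycoprotein Cd68 (220.0 and 66.8 CPM). Fcgr1, the high-affinity antibody receptor, was higher at 20.2 and 58.6 CPM. Cd63, a lower gene of both the macrophage and the lysosome list (-1.05), was short of 2-fold under some alternatives. It was at -0.92 with an MHC class II limit of 15 and -0.99 without cells carrying Ccr7 UMIs. Among 14 PPARG and lipid genes, 5 were 2-fold lower and 1 higher (median -0.63; -0.68 in all other cells), with Fabp5 at 394 and 59.0 CPM, the scavenger receptor Cd36 at 32.4 and 1.05 CPM and Olr1 at 29.5 and 3.16 CPM. Pparg itself was higher, at 12.4 and 31.0 CPM. Of 21 lysosomal genes, 7 were 2-fold lower and 20 were below 0 (median -0.76; -0.26 in all other cells), with Psap at 1649 and 626 CPM, Lyz2 at 632 and 204 CPM and Atp6v0d2 at 34.0 and 5.68 CPM. The exception was the cysteine protease inhibitor Cst3, at 5655 and 8061 CPM (0.51).

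Genes of dendritic cell identity did not move as a block. On the monocyte-derived and type 2 dendritic cell list, 2 of 15 genes were 2-fold higher and 3 lower (median -0.32; -0.77 in all other cells). The higher ones were Zbtb46, a factor of conventional dendritic cells (14.2 and 28.8 CPM), and Dpp4 (15.8 and 32.8 CPM). Neither call held under every alternative: the median of ratios scaling gave 0.94 and 0.98, and Dpp4 was at 0.92 with an MHC class II limit of 60. The lower ones were Itgax, which encodes CD11c (183 and 76.6 CPM), Ccl17 and Ccl22. Type 1 dendritic cell genes were lower for Irf8 (88.3 and 22.6 CPM), Batf3 (83.9 and 32.1 CPM) and Naaa (125 and 42.4 CPM), 3 of 5 compared. The list's median was -1.39, and -0.94 in all other cells. There, Irf8 was at -0.94, Batf3 at -1.67 and Naaa at -2.09. Xcr1, the defining receptor gene of type 1 dendritic cells, was seen in 0 of 600 DMSO and 0 of 581 DAB cells at 3000 UMIs. For a count of 0, the rule used was a limit of 3 cells, which allows up to 0.500% and 0.516% of cells with a UMI. On the plasmacytoid list of 10 genes, Siglech and Ly6d were at 0 in both libraries and 4 genes could be compared, Cox6a2 alone passing 2-fold. Among the 17 monocyte and dendritic transcription factors, 6 were lower and 1 higher (median -0.50). Id2 (423 and 727 CPM) and Spi1, which encodes PU.1 (316 and 555 CPM), were above 0 but short of 2-fold, and Cebpb was lower at 564 and 185 CPM. Of 8 monocyte genes, 3 were lower: Ccr2 (78.6 and 28.8 CPM), F13a1 (23.2 and 3.46 CPM) and Fn1 (120 and 23.9 CPM). Over the settings run, the ratio of F13a1 lay between -4.46 and -2.18 and that of Fn1 between -3.92 and -2.14. The list's median was -0.48 (0.23 in all other cells), and lay between -1.45 and 0.19 over the settings.

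**Figure D3:**
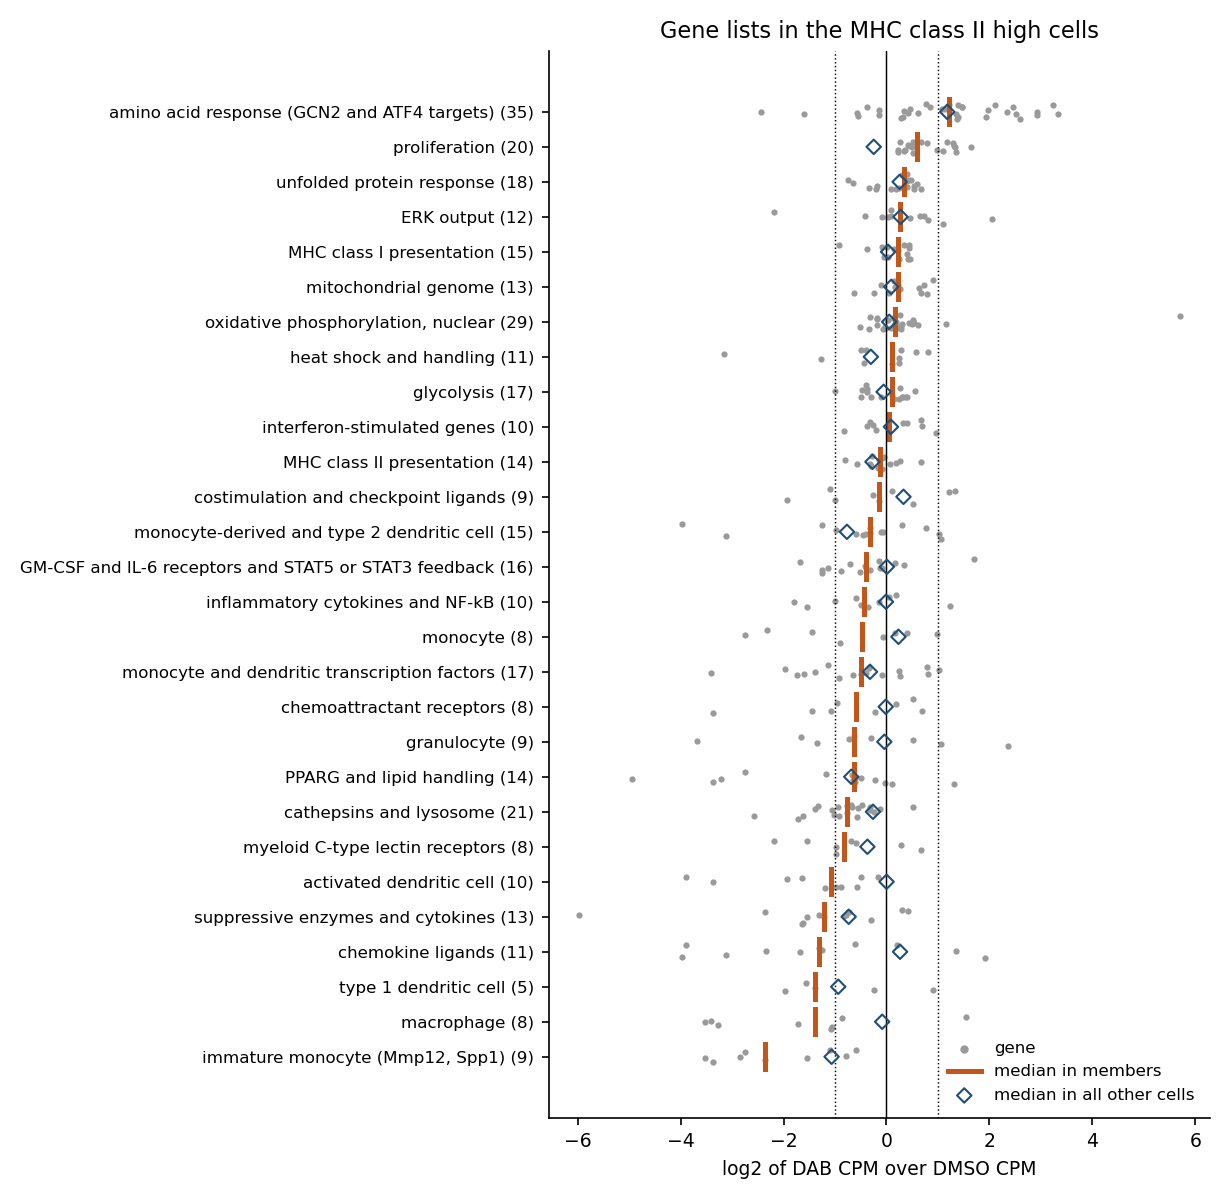
log2 of DAB CPM over DMSO CPM in MHC class II high cells for each gene (grey points) of the 28 lists with at least 5 genes compared, whose number stands in brackets. Bars mark the list's median in these cells, diamonds its median in all other cells, and dotted lines 2-fold; the amino acid response list had the highest median (1.22) and the immature monocyte list the lowest (-2.36).

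The genes that amino acid shortage switches on through GCN2 and ATF4 were higher in DAB. Of the 35 compared on that list, 20 were at least 2-fold higher and 2 lower (median 1.22), and the median in all other cells was 1.18. Asparagine synthetase Asns was at 15.5 CPM in DMSO and 118 CPM in DAB (log2 ratio 2.92, interval 2.70 to 3.15), and Phgdh, which opens serine synthesis, at 17.1 and 129 CPM (2.92, 2.71 to 3.13). The secreted Stc2 had the largest ratio of the list, at 3.84 and 38.9 CPM (3.34). The glutathione-degrading Chac1 was at 4.59 and 43.4 CPM, the kinase-like Trib3 at 15.95 and 81.2 CPM and Shmt2, of mitochondrial one-carbon metabolism, at 19.8 and 108 CPM. The carriers Slc7a5 (40.3 and 174 CPM), its partner Slc3a2 (142 and 299.98 CPM) and Slc1a5 (28.0 and 107 CPM) were among the 2-fold higher genes. With the median of ratios scaling Slc3a2 was just short of 2-fold, at 0.9998. Several members of the same pathway did not follow. Atf4 itself was at 183 and 228 CPM, Ddit3 (CHOP) at 51.4 and 46.5 CPM, Slc7a11 at 92.9 and 71.6 CPM, and Atf3 was lower at 71.2 and 13.1 CPM (-2.45). In all other cells Ddit3 was at 45.1 and 75.2 CPM and Slc7a11 at 97.7 and 184 CPM. On the unfolded protein response list none of 18 genes passed 2-fold (median 0.34).

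The promoters of Avil, one of the 10 genes with the largest ratio, and of Chac1, from the amino acid list, are shown because they hold the 8 letters TGATGCAA, a composite site that C/EBP and ATF factors can bind. The windows run from 200 bases before the start to the base before it, and capitals mark the letters or their reverse TTGCATCA.
Avil, chr10:127000509-127000708, plus strand: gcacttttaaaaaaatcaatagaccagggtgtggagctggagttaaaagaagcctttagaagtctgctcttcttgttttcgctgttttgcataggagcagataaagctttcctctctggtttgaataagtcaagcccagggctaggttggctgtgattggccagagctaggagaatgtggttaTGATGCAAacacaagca
Chac1, chr2:119351042-119351241, plus strand: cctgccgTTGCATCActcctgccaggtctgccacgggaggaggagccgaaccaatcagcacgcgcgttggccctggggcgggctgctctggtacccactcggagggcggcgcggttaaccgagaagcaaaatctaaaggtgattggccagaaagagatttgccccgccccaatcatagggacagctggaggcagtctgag
On either strand, TGATGCAA occurred in 294 of 32851 promoter windows (0.895%). Of the 10 genes with the largest ratio, 8 were in the table and Avil alone held it. Of the 42 genes of the amino acid list, 33 were in the table and 11 held it, among them Chac1 and Atf3, whose ratios had opposite signs.

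Cox6a2, a muscle-type subunit of cytochrome c oxidase, had the largest ratio of all, at 2.92 CPM in DMSO and 151 CPM in DAB (5.70, interval 5.22 to 6.22). In the sum of all other cells its ratio was 3.67. At 3000 UMIs, 0.5% of DMSO cells and 26.2% of DAB cells had a Cox6a2 UMI, while the DAB B cells had 8.1% and the DAB granulocytes with Ltf or Ngp 9.9%. The actin-binding Avil was at 14.6 and 219 CPM (3.91, interval 3.69 to 4.14) with 3.7% and 38.9% of cells, and 1.2% in DAB B cells and 3.4% in DAB granulocytes. Of the other genes among the 10 largest, Dscam, an adhesion receptor of neurons, was at 14.0 and 205 CPM, Rtn1 at 11.7 and 139 CPM, the potassium channel Kcnq5 at 11.4 and 121 CPM, Trp53i11 at 14.2 and 126 CPM, the cadherin Cdh17 at 36.7 and 279 CPM, and the protease inhibitor Stfa2 at 8.43 and 74.0 CPM. Dscam, Rtn1, Cdh17, Trp53i11 and Avil were also over the rest in both libraries, by log2 ratios of at least 2.44. Ly6a (Sca-1), named after its values were seen, was at 183 CPM in DMSO and 883 CPM in DAB (2.27), against 79.5 and 122 CPM in other cells. The progenitor marker Cd34 was at 28.8 and 119 CPM.

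**Figure D4:**
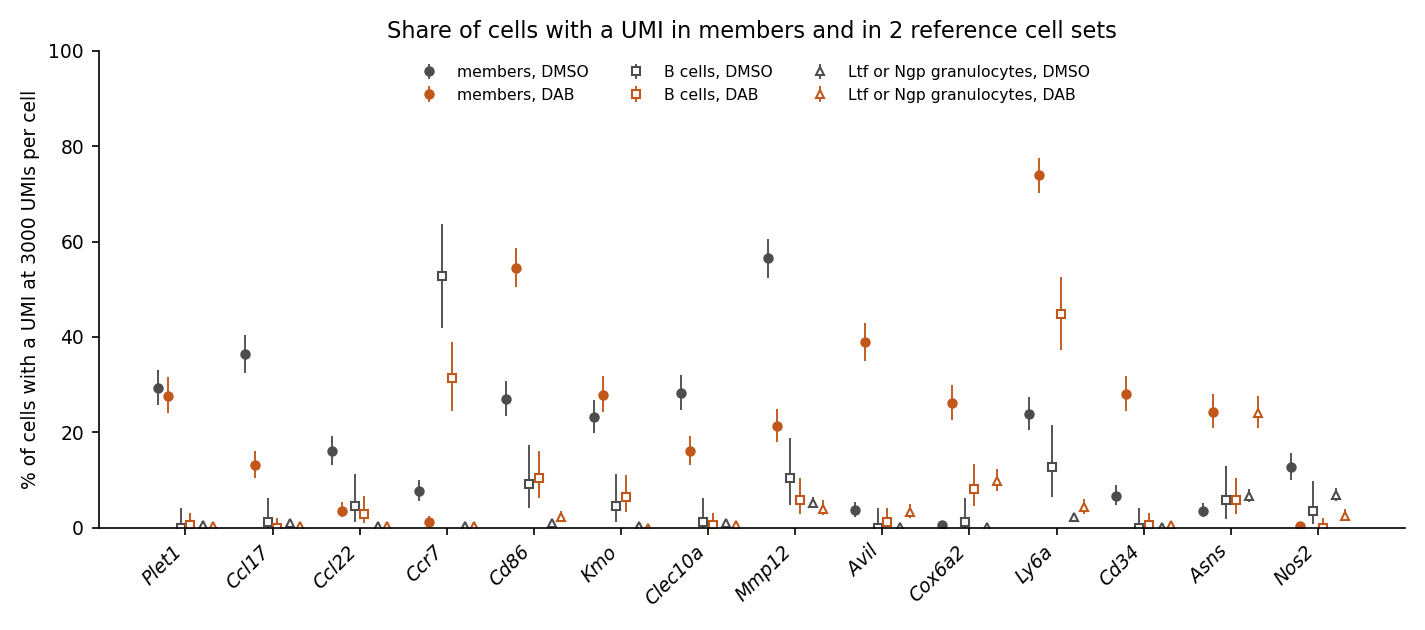
Percent of cells with at least 1 UMI of a gene after each cell was thinned to 3000 UMIs, in MHC class II high cells (filled circles; 600 DMSO and 581 DAB cells), B cells (squares; 87 and 172) and granulocytes with Ltf or Ngp (triangles; 1470 and 679). Lines are exact binomial intervals; Ly6a, Cd86, Avil, Cd34 and Cox6a2 were more frequent in DAB than in DMSO MHC class II high cells, and Ccl17, Mmp12, Ccl22, Clec10a and Nos2 less frequent, while Plet1 and Kmo lay close together.

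Of 20 cell division genes, 7 were at least 2-fold higher in the DAB cells, 13 did not pass 2-fold, and all 20 were above 0 (median 0.59), whereas the median in all other cells was -0.25. With an MHC class II limit of 60 the median was 0.31 over 15 genes, and Mki67 and Cenpf were at -0.15 and -0.30. Leaving out cycling cells, which were defined by UMIs of this list, left 3 of its genes to compare. Mki67, Top2a, Ube2c and Cenpf were then at -0.40, -0.54, -0.40 and -1.40, and nothing is read from these values. Mcm2, a replication helicase subunit, was at 8.27 and 25.9 CPM, Plk1, a mitotic kinase, at 9.10 and 23.3 CPM, and Mki67 at 54.6 and 63.9 CPM. With at least 3 UMIs of this list at 3000 UMIs counted as cycling, 74 of 600 DMSO cells (12.3%, interval 9.81 to 15.2%) and 104 of 581 DAB cells (17.9%, 14.9 to 21.3%) were cycling, against 14.8% and 11.3% of other cells. A further 34 and 43 cells had 2 such UMIs, just under the limit.

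Signalling and energy genes were compared in the same way. Of all genes compared, 4.90% were at least 2-fold higher and 6.26% lower, and nothing is read from list counts near these shares. On the list of GM-CSF and IL-6 receptors and their feedback, 4 of 16 genes were 2-fold lower, namely Socs3 (91.0 and 28.2 CPM), Il6st, the shared IL-6 receptor chain (38.0 and 15.998 CPM), Stat5a (35.1 and 14.8 CPM) and Stat5b (50.1 and 22.7 CPM), and 1 was higher, Pim2 (median -0.41). Csf2rb, the beta chain of the GM-CSF receptor, was at 919 and 738 CPM. Among 12 ERK output genes, Ccnd1 (24.5 and 102 CPM) and Egr3 were higher and Egr2 (25.2 and 5.57 CPM) lower (median 0.27). In all other cells the GM-CSF and IL-6 list had a median of 0.008 and the ERK output list of 0.27. Of 10 inflammatory and NF-kB genes, Tnf was higher (30.3 and 71.7 CPM) and Il1b (44.7 and 12.9 CPM), Nfkbiz and Tnfaip3 were lower. None of 10 interferon-stimulated genes and none of 13 mitochondrially encoded genes passed 2-fold (medians 0.05 and 0.22). Of 29 nuclear oxidative phosphorylation genes, Uqcrq (333 and 745 CPM) and Cox6a2 did (median 0.17, and 0.05 in all other cells). Of 17 glycolysis genes, Hif1a alone passed 2-fold, at 157 and 78.2 CPM (median 0.10, and -0.06 in all other cells). Hif1a was at the 2-fold limit, and short of it at -0.91 without cells carrying UMIs of some granulocyte genes and -0.96 without cycling cells.

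Within these cells, gene levels changed with the MHC class II level itself. The cells were divided at 60, 120 and 240 MHC class II UMIs per 10000, and cells of 10 to 30 that met the other criteria were set beside them. From the band of 30 to 60 to the band over 240, Plet1 went from 138 to 453 CPM in DMSO and from 86.2 to 488 CPM in DAB, Pltp (a lipid transfer protein) from 42.0 to 232 and from 74.3 to 571 CPM, and Cd86 from 69.1 to 249 and from 210 to 709 CPM. Cst3 and Aif1 were also highest in the upper bands. Itgae, the integrin chain CD103, was at 4.25 CPM in the DMSO cells of 30 to 60 and 133 CPM in those over 240, and at 1.01 and 44.7 CPM in DAB. Mmp12 (1653 to 320 CPM in DMSO) and Lyz2 (1012 to 140 CPM) went down over the same bands. The highest band held 21 DMSO and 15 DAB cells only.

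The difference between the libraries was present at each MHC class II level for most of the genes followed. These genes included several with the largest ratios above, among them Cox6a2, Avil, Dscam and Nos2. The 4 bands over 30 divide the same cells, so like ratios within them are a description and no separate support. Ccl17 had a log2 ratio between -4.17 and -2.36 in the 4 bands over 30, Cd86 between 1.15 and 1.60, Ly6a between 2.17 and 2.48 and Asns between 1.72 and 2.99. Other genes changed their ratio along the bands. Plet1 was lower in DAB at 30 to 60 (-0.68) and 60 to 120 (-0.81) but higher at 120 to 240 (0.35, from 321 to 407 CPM). Clec10a, a lectin of type 2 dendritic cells, had ratios of -2.18, -1.03, -0.26 and 0.61, because its level in DAB went from 41.3 to 262 CPM while that in DMSO stayed between 172 and 235 CPM. The ratio of Avil went from 4.23 to 1.91 and that of Rtn1 from 4.75 to 1.02. In DAB, Cox6a2 was at 186 CPM at 30 to 60 and 26.8 CPM (12 UMIs) over 240. Ccl5 was lower in DAB at 30 to 60, 60 to 120 and 120 to 240, while over 240 it had 1 UMI in DMSO and 44 in DAB.

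**Figure D5:**
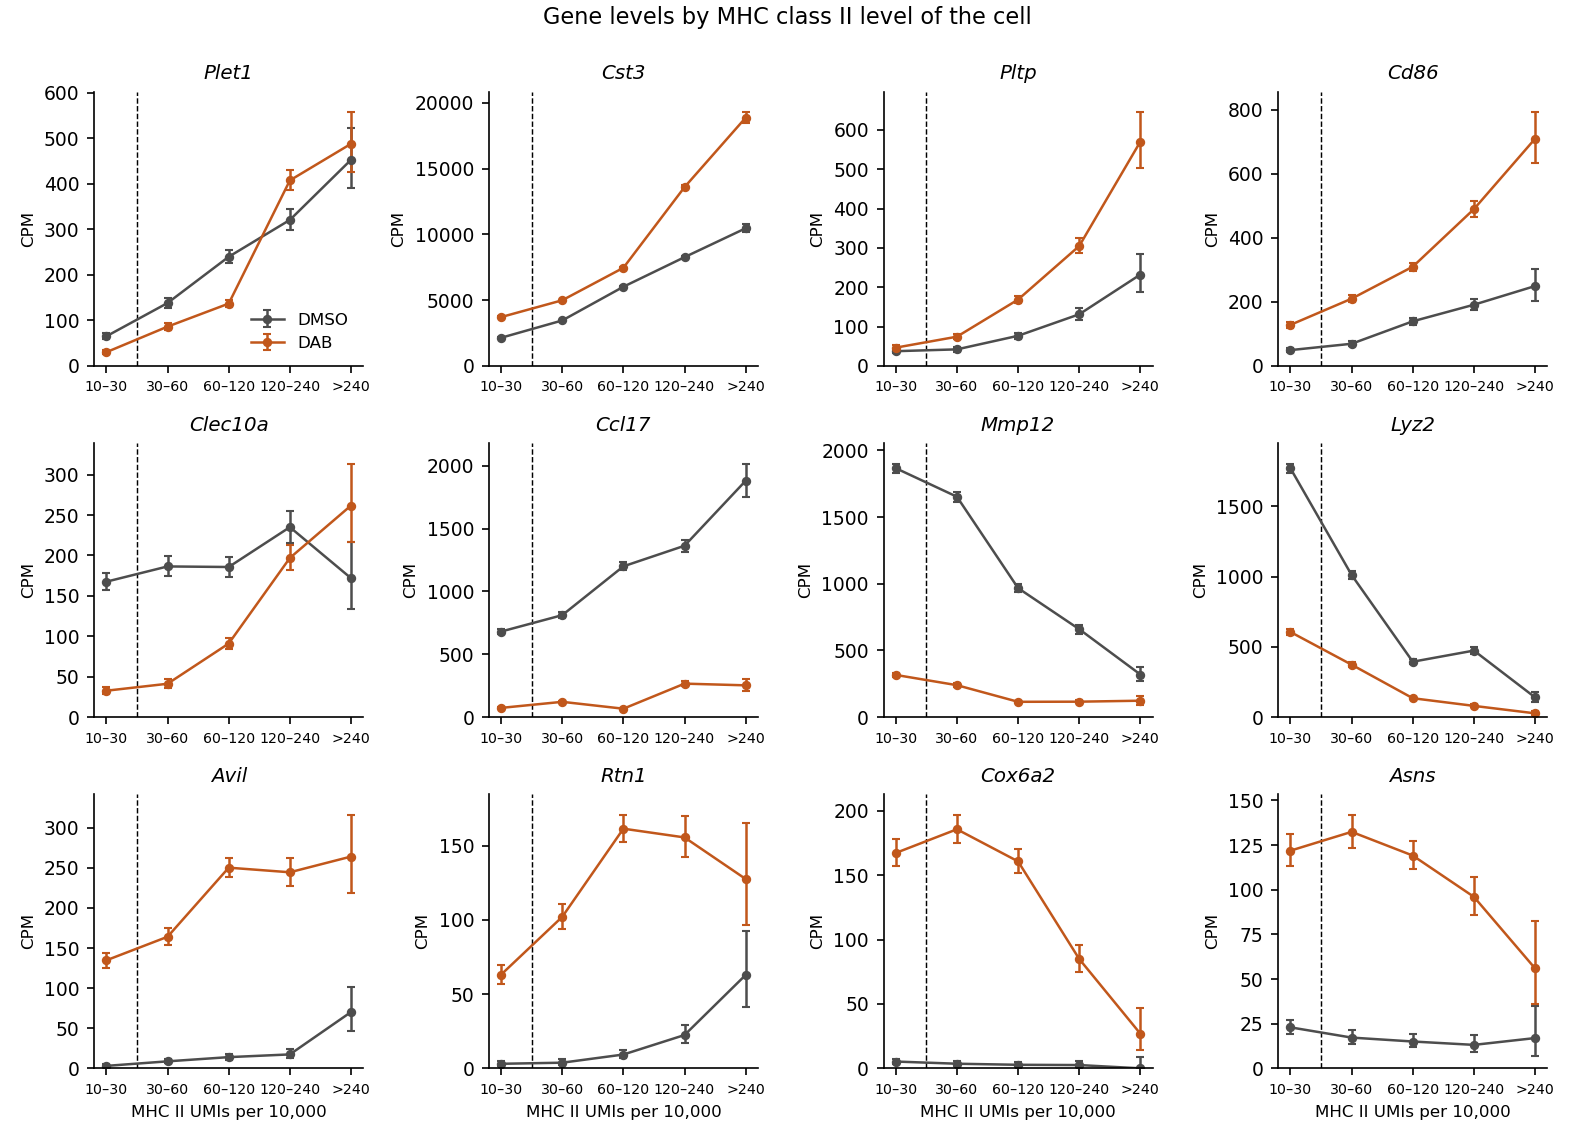
CPM of 12 genes in cells grouped by their MHC class II level (UMIs of H2-Aa, H2-Ab1 and H2-Eb1 per 10000), in the DMSO library (grey) and the DAB library (orange), with exact Poisson intervals; the dashed line separates cells under the limit of 30. Plet1, Cst3, Pltp and Cd86 were higher at higher MHC class II levels in both libraries, Mmp12 and Lyz2 were lower, and Cox6a2 and Asns in DAB were lowest in the highest band.

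Plet1 and Ccl17 overlapped only in part. Cells with at least 5 UMIs per 10000 of both numbered 72 of 628 in DMSO (11.5%) and 23 of 591 in DAB (3.89%), while 189 (30.1%) and 49 (8.29%) reached that Ccl17 level. The DAB cells with Ccl17 had Cst3 at 20939 CPM against 7156 CPM in the other DAB cells, and a median MHC class II level of 112 against 72.1 per 10000. In DMSO, Cst3 was at 9648 against 3879 CPM and the medians were 78.7 and 70.3. The 49 DAB cells at that Ccl17 level had less Avil (90.1 against 229 CPM) and less Cox6a2 (29.4 against 160.0 CPM) than the remainder, all of these limits having been set after the values were seen.

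RNA of other cell types moved with some results. The granulocyte list of 16 genes summed to 4207 CPM in DMSO and 2722 CPM in DAB cells, against 52130 and 44042 CPM in other cells, led by S100a9, and 3 of its 9 genes compared (Ngp, Mmp8 and Prtn3) were 2-fold lower and 2 (Mmp9 and G0s2) higher (median -0.63). In cells with S100a8 and S100a9 under 100 per 10000, the list's median was 0.83 over 7 genes compared. That value is the ratio of S100a8, a gene that set this limit, so nothing is read from its sign. The 41 DMSO and 32 DAB cells over that limit held 94.9% and 83.0% of the S100a9 UMIs. The B cell list, 3 of whose genes the rule requires to be at 0, summed to 6.76 and 6.91 CPM. The T or NK cell list summed to 107 and 69.6 CPM, most of it Il7r, with Trbc2, Ncr1 and Klrb1c at 0. The basophil, mast cell and eosinophil list summed to 38.8 and 43.3 CPM with Epx at 0. The erythroid and progenitor list summed to 64.6 and 159 CPM, led by Cd34. The part of these RNAs in the results was not tested. Without the cells over the S100a8 and S100a9 limit, the log2 ratios of Ccl17, Nos2 and Ccl22 were -2.95, -6.37 and -4.005.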

How the data were processed

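The authors deposited gene by barcode UMI counts, made with Cell Ranger 7.0.0 from 10x 5′ libraries on mm10, for 1 DMSO and 1 DAB library. The counts were used as deposited, with 32285 features. Cells needed at least 1000 UMIs and at most 10% mitochondrial UMIs. UMIs of the MHC class II high cells were summed per library and scaled to a total of 1000000 (CPM). Log2 ratios of DAB over DMSO have exact conditional Poisson 95% intervals, and shares have exact (Clopper-Pearson) binomial ones. Genes at 20 CPM or more in 1 library were compared, and 2-fold was the size named. Doublets were kept, and removed only as an alternative. The members and the 33 gene lists were chosen with earlier results of these data known. Genes were named if they belonged to the rule or label, were among the 10 largest ratios in either direction (50 CPM in 1 library) or the 10 leading genes over other cells, or were the 3 most abundant, the most changed or the 2-fold members of a list, and others are said to have been chosen later. Detection shares used cells thinned to 3000 UMIs. The calculation was checked on simulated counts. Promoters came from RefSeq (GRCm38.p6). Python 3.11.15, numpy 2.4.6, scipy 1.17.1, pandas 2.3.3, scikit-learn 1.9.0 and matplotlib 3.10.9 were used. Results for some list members are not reported here.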

Additional observations from a re-analysis of the deposited data

How the results depend on the processing

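No paired analysis was possible because each condition was 1 library and the labels carry no replicate numbers. Counts of genes at least 2-fold higher and lower in DAB were 554 and 755 with a filter of 5 CPM, 125 and 176 with 50 CPM, and 1658 and 3435 with no filter and 1 UMI added, and 898 and 856 genes passed 1.5-fold. Other cell sets and scalings gave 235 to 325 higher and 333 to 425 lower genes. Without cells carrying Ccr7 UMIs, which were left out as an alternative chosen after seeing the data, 253 were higher and 349 lower. MHC class II high cells made up 8.73% of DMSO and 6.44% of DAB cells with a limit of 15, 4.19% and 3.45% with a limit of 60, and 7.32% and 5.79% among cells of at least 3000 UMIs. The granulocyte list's median log2 ratio was -1.93 with doublets removed and 0.83 with S100a8 and S100a9 under 100. It was 0.71 without cells carrying UMIs of some granulocyte genes. That alternative did not clear the whole list, as 7 of its genes, S100a8 and S100a9 among them, could still be compared. The last 2 alternatives choose cells by granulocyte genes, so nothing is read from the sign of these medians. The basophil, mast cell and eosinophil list, with 1 gene compared in the reported result, was at -1.34 with doublets removed and -0.64 with a limit of 15 or without cycling cells. It was at -1.22 without cells carrying UMIs of some granulocyte genes, -1.18 without Ccr7 UMIs and 1.94 with a filter of 5 CPM. The proliferation median was 0.31 with a limit of 60 (15 genes compared) and 0.29 without cycling cells (3 genes compared, against 20). Cycling cells were defined by this same list. The T or NK cell list was at -0.36 without Ccr7 UMIs and -0.87 with 5 CPM. Of 159 genes recomputed singly, 18 took the other sign under at least 1 alternative. Of these, Cxcl3 and Prg2 had ratios past 2-fold with the main settings, at 1.92 and 4.02. Cxcl3 was at -0.018 with doublets removed and Prg2 at -0.40 without cells carrying UMIs of some granulocyte genes. Prg2 was not among the list members counted above as 2-fold higher. S100a8 (1.18), S100a9 (0.99) and Lcn2 (0.49), all without cells carrying UMIs of some granulocyte genes, were short of 2-fold with the main settings. Shares of DMSO cells with a UMI were 47.9% for Ccl17 without thinning, 22.1% and 48.2% for Plet1 at 1500 UMIs and without thinning, 17.6% and 61.9% for Cd86, and 5.65% and 12.4% for Ccr7. In DAB they were 10.4% and 21.7% for Ccl17, 18.2% and 44.8% for Plet1, 36.1% and 93.4% for Cd86, and 2.88% for Ccr7 without thinning. Cycling shares were 46.8% (DMSO) and 65.0% (DAB) without thinning and 8.83% and 13.9% with at least 5 UMIs. The causes were not tested. Of the log2 ratios of single genes recomputed, 1601 values moved by less than their interval, 461 moved by more and the 2 of Cxcl3 and Prg2 above reversed from past 2-fold, and of the list medians 434 moved by less, 10 by more and 3 reversed. Among the genes recomputed singly, Dpp4, Zbtb46, Slc3a2, Cd274, Cd83, Cd63, Cxcl3, Prg2 and Hif1a were among those short of 2-fold under at least 1 alternative. Genes not recomputed singly, such as Mmp9, Ngp and Stat5b, have no such value, though the median of ratios scaling lowers every ratio by 0.0747.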

Other observations

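Cells with at least 2 UMIs per 10000 of Cd200r3 and Il2ra, a set chosen after the values were seen, numbered 76 in DMSO (12.1%) and 57 in DAB (9.64%). Their level of Adgre1, which encodes F4/80, was 458 CPM in DMSO and 432 CPM in DAB, against 213 and 108 CPM in the remaining MHC class II high cells.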
